A study of Homo sapiens with 28 samples.

Results

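The genes described here encode the enzymes and regulators that make fatty acids and assemble them into triglyceride. There were 31 of them, listed by name for their role in the pathway, with earlier results of these data known, among the 63139 genes of the count table. In HepG2 cells 30 of the 31 were expressed highly enough to be tested, as were 18849 genes in all. They fall into 9 roles: the regulators SREBF1, MLXIPL and THRSP, the enzymes of precursor supply with the synthase (ACLY, ACSS2, ACACA, ACACB and FASN), the elongases ELOVL1, ELOVL2, ELOVL5 and ELOVL6, the desaturases SCD, FADS1 and FADS2, the acyl-CoA synthetases ACSL1, ACSL3, ACSL4 and ACSL5, the glycerol-3-phosphate acyltransferases GPAM, GPAT3 and GPAT4, the acylglycerolphosphate acyltransferases AGPAT1, AGPAT2, AGPAT3 and AGPAT5, the lipins LPIN1, LPIN2 and LPIN3, and the diacylglycerol acyltransferases DGAT1 and DGAT2.

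The study exposed HepG2 cells, an established human liver tumour line, to 5 environmental chemicals and sequenced their polyadenylated RNA. The groups were CdCl2 (cadmium chloride, 0.5 µM), set against water, and TCDD (a dioxin, 100 nM), PFOS (a perfluorinated surfactant, 10 µM), BPA (bisphenol A, 75 µM) and TBTCl (tributyltin chloride, an organotin biocide, 0.1 µM) set against DMSO, at a DMSO content of at most 0.1%. All 28 libraries, 4 in each group and the controls included, came from cells of this 1 line that spent 24 h without serum and then 24 h with the compound or its vehicle. According to the labels the cells came from 4 independent experiments, and they do not say whether libraries with equal replicate numbers share one.

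Library totals lay between 28.9 M and 66.0 M counts, and levels are given as CPM, a library's count per M counts scaled by the TMM factors of edgeR. A note in the labels says that TCDD and PFOS names were exchanged after deposit, and CYP1A1, the textbook target gene of dioxins, was at 2841 to 6410 CPM in the libraries now labelled TCDD, at no more than 16.1 CPM in those labelled PFOS, at 242 ± 176 CPM in BPA (SD, n = 4) and at 2.82 to 16.9 CPM in DMSO. All 10 hepatocyte markers (ALB, AFP and others) were expressed in the line. Of 10 markers of other cell types, PTPRC had at most 1 count in a library and CD68, COL3A1 and KRT7 had at most 12. The rest were expressed, with the biliary keratin KRT19 at 218 to 783 CPM, ACTA2 at 20.7 to 54.9 CPM and PDGFRB at 1.61 to 23.3 CPM. PECAM1 (2.37 to 6.46 CPM), COL1A1 (0.421 to 3.46 CPM) and VWF (0.352 to 1.36 CPM) were lower. TBTCl replicate 4 stood apart from all other libraries on the third principal component of all tested genes, so the calls and the larger differences under TBTCl are given with and without it. In such bulk samples fewer cells of a type and less RNA per cell cannot be told apart.

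Fatty acid synthesis turns citrate and acetate into acetyl-CoA, carboxylates part of it to malonyl-CoA and joins these units on fatty acid synthase into palmitate. Elongases and desaturases lengthen and unsaturate the product, and acyl-CoA synthetases activate free fatty acids. Triglyceride then grows on glycerol-3-phosphate: GPAT enzymes add the first acyl chain, AGPAT enzymes add the next, lipins remove the phosphate and DGAT enzymes add the last chain. In the liver SREBP-1, the product of SREBF1, and ChREBP, the product of MLXIPL, activate many of these genes in response to insulin, sterol signals and carbohydrate, and triglyceride made this way accumulates in fatty liver.

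Promoter sequence is shown for 4 members: AGPAT2, with the largest rise under TCDD, ACSL4, with the largest fall under TCDD, GPAT3, with the largest rise under BPA, and SREBF1, the regulator that rose under TBTCl. The bases are those of RefSeq (GRCh38.p14) before the annotated start, cut where a GENCODE transcript begins further out, written 5′ to 3′ on the strand of the gene with the GCGTG core of the dioxin response element in capitals on either strand (CACGC on the opposite one).
AGPAT2 (chr9:136687458-136687707, minus strand): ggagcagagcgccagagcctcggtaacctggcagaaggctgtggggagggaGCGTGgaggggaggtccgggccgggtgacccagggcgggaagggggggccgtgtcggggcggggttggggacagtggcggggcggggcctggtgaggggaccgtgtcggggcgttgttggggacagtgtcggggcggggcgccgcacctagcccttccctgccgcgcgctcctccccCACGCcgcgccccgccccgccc
ACSL4 (chrX:109733404-109733507, minus strand): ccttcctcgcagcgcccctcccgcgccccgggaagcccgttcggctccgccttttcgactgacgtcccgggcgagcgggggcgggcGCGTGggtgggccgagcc
GPAT3 (chr4:83535857-83535913, plus strand): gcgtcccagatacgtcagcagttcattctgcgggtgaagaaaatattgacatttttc
SREBF1 (chr17:17837003-17837236, minus strand): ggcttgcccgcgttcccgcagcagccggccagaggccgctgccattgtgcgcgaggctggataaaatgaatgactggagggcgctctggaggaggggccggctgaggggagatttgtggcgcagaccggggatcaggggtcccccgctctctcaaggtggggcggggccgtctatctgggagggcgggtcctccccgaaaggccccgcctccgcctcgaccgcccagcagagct

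RefSeq windows of 250 bases before to 50 after a start, 1 or more per gene, were at hand for 25 of the 31 members. GCGTG, searched on both strands, stood in a window of 15 of these 25 (60%) and of 40.6% of all 27305 genes. Its holders included AGPAT2, at bases -199 and -22 from the start, and ACSL4, which rose and fell under TCDD, and also SCD and AGPAT1, which were not called. The E-box CACGTG, which carbohydrate and sterol response factors can bind, stood in 2 of 25 members (ELOVL5 and LPIN2, 8%) and in 8.77% of all genes. The sterol regulatory element TCACNCCAC stood in 1 of 25 (ACSL1, at base -242, 4%) and in 1.39% of all genes, and the windows of GPAT3 and SREBF1 held none of the 3 motifs. These matches are a description of letters in a short window and say nothing about binding.

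In cells given DMSO alone the pathway was dominated by its desaturase and its synthase. Per length, SCD, which makes oleate, stood at 654 ± 128 CPM per kb of exon (SD, n = 4), FASN, the synthase, at 278 ± 58.7 CPM per kb and ACLY, which makes acetyl-CoA from citrate, at 134 ± 22.5 CPM per kb. These 3 were followed by ACSL4 at 82.1 ± 10.0 and ACSL3 at 61.6 ± 14.5 CPM per kb. The next was AGPAT1 at 39.1 ± 5.18 CPM per kb, and down to it each gene lay below the one before by more than either SD. From AGPAT1 to LPIN3, at 6.91 ± 0.819 CPM per kb, most neighbours in the order lay within the larger of their SDs, with steps beyond both SDs only from ELOVL5 to MLXIPL, ELOVL2 to ELOVL1, AGPAT5 to ACACA and ACSL1 to GPAT4. The lowest tested members were AGPAT2 (5.16 ± 3.28 CPM per kb), LPIN1 (3.13 ± 0.364 CPM per kb), ACACB (2.27 ± 0.371 CPM per kb) and GPAT3 (1.89 ± 0.326 CPM per kb). SCD and FASN together held 55.9% to 59.9% of the counts of all 31 members in the DMSO libraries.

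**Figure D1:**
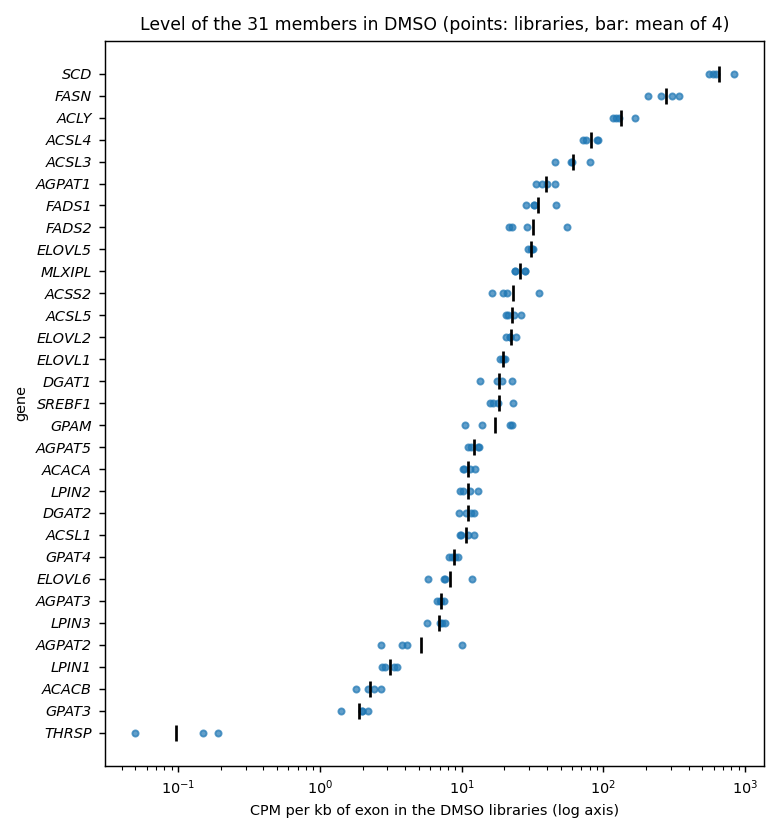
Level of each member in the 4 DMSO libraries as CPM per kb of exon on a log axis (points: libraries, bar: mean). SCD, FASN and ACLY lead, GPAT3 is the lowest tested member at 1.89 CPM per kb, and THRSP, with 1 of its libraries at 0 and not drawn, lies far below the rest.

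THRSP, a nuclear protein that promotes lipogenesis in rodent liver, was close to silent. It had 0 to 15 counts per library (0 to 0.408 CPM), with at most 3 counts in 11 of the 28 libraries, and did not enter the tests. Its gene overlaps NDUFC2 on the opposite strand, and the sources used here do not say whether the counting used strand, although the libraries kept it. Levels varied between libraries of the same group by different amounts: in DMSO the coefficient of variation ran from 3.33% for ELOVL1 and 3.82% for ELOVL5 to 49.5% for FADS2 and 63.6% for AGPAT2.

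Of the 30 tested members 15 (50%) were called under TCDD, 12 (40%) under BPA, 1 under TBTCl and none under CdCl2 or PFOS. Over all tested genes 9.25% were called under TCDD and 35.0% under BPA, so the members' share under BPA was near the background. A member was called at an edgeR quasi-likelihood p, adjusted by Benjamini-Hochberg over all 18849 genes, under 0.05. By this rule 21 of the 30 tested members (70%) were called under at least 1 compound, beside 39.9% of all tested genes, and ACLY, ACSS2, ACACA, ACACB, ELOVL5, ELOVL6, SCD, ACSL5 and AGPAT1 under none.

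**Figure D2:**
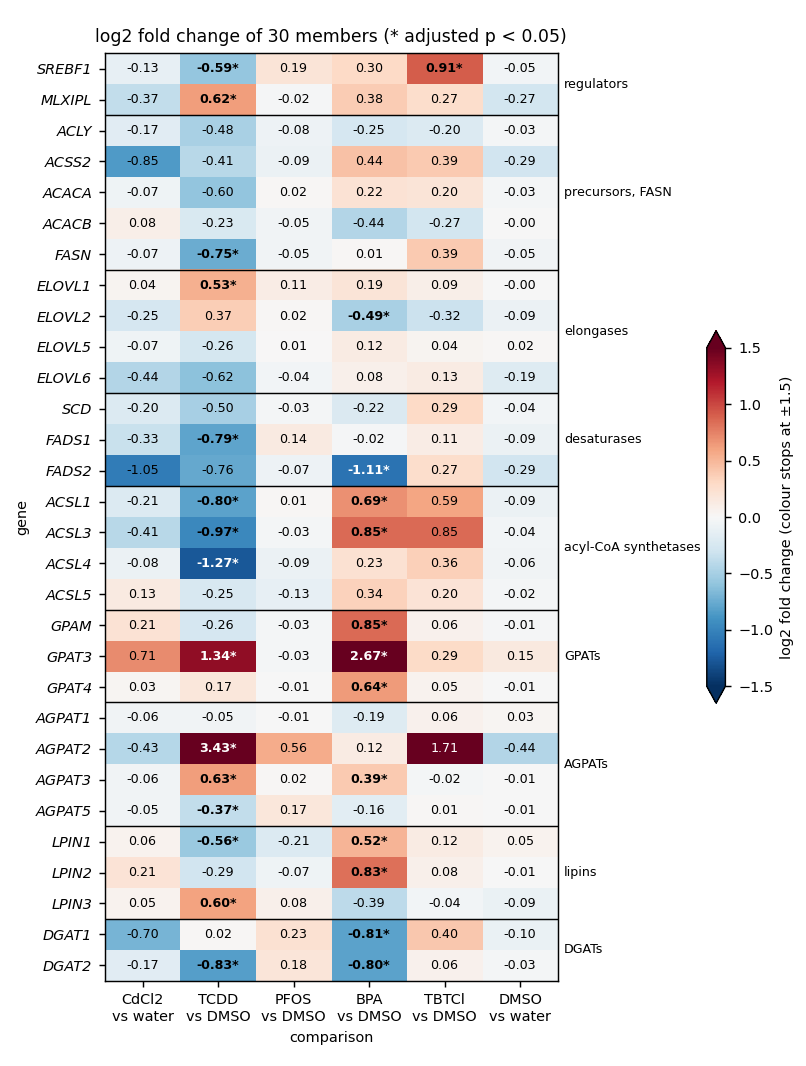
Log2 fold change of the 30 tested members in each comparison, compound over vehicle and, in the last column, DMSO over water, in pathway order (colour and number: log2 fold change, asterisk: adjusted p under 0.05). The TCDD column is mostly blue with AGPAT2 at 3.43 and GPAT3 at 1.34, the BPA column is red at all 4 acyl-CoA synthetases and all 3 GPAT genes and blue at both DGAT genes, and the PFOS column stays between -0.21 (LPIN1) and 0.56 (AGPAT2).

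Under TCDD 9 of 30 members fell and 6 rose. Over all tested genes 2.80% were called lower and 6.45% higher in this comparison. The median log2 fold change of the 30 members was -0.33, beside -0.01 over all tested genes. Every TCDD library lay below every DMSO library for 13 members and above for 8, beside 5.95% and 9.38% of all tested genes. Together the 31 members took 0.593% to 0.857% of all counts in the TCDD libraries, against 0.921% to 1.34% in DMSO and at least 0.901% in each library of the other groups. Without SCD and FASN the share was 0.284% to 0.359% in TCDD, against 0.398% to 0.539% in DMSO. Summed hepatocyte markers were at 35673 to 52790 CPM in the TCDD libraries, against 39378 to 72379 CPM in DMSO, and summed markers of other cell types at 413 to 507 CPM in TCDD, against 549 to 639 CPM in DMSO, with PDGFRB called lower. KRT19 made up most of the sum for other cell types. The part of either list in the changes of the members was not tested.

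The regulators went apart under TCDD. SREBF1, which encodes SREBP-1, averaged 98.3 ± 19.2 CPM in TCDD and 148 ± 25.5 CPM in DMSO (SD, n = 4 each) and fell (log2 fold change -0.59 ± 0.13 SE, adjusted p = 0.00388). RAI1, which overlaps SREBF1 on the opposite strand with 30.2% as many counts, had a log2 fold change of -0.00 ± 0.16. MLXIPL, which encodes the carbohydrate-responsive factor ChREBP, stood at 175, 199, 195 and 202 CPM in the TCDD libraries, against 136, 114, 115 and 135 CPM in DMSO. All 4 TCDD libraries were above all 4 DMSO libraries, a 1.54-fold rise (log2 fold change 0.62 ± 0.16 SE, adjusted p = 0.0108). Against the water libraries, which had 130.1, 144, 197 and 135 CPM, the log2 fold change of MLXIPL was 0.35 (adjusted p = 0.209), and its call was also lost without DMSO replicate 2 (adjusted p = 0.0535).

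Of the precursor enzymes and the synthase 1 of 5 fell. FASN had 1809, 1086, 1257 and 2043 CPM in the TCDD libraries, against 1939, 2406, 2878 and 3196 CPM in DMSO. The groups overlapped, since TCDD replicate 4 was above DMSO replicate 1, and the fall was just past the threshold (log2 fold change -0.75 ± 0.24 SE, adjusted p = 0.0465). The call of FASN was lost without DMSO replicate 2, 3 or 4 (adjusted p = 0.0672, 0.108 and 0.139) and without TCDD replicate 2 or 3 (adjusted p = 0.192 and 0.140), in a fit of only the 8 libraries (0.0617) and with library size alone (0.0572). ACLY (499 ± 89.7 CPM in TCDD against 697 ± 117 CPM in DMSO, adjusted p = 0.123) and ACACA, an acetyl-CoA carboxylase (96.1 ± 22.4 CPM in TCDD against 145 ± 14.0 CPM in DMSO, adjusted p = 0.138), lay below DMSO in every library without being called. ACACA was called lower in a fit of only the 8 libraries (adjusted p = 0.0392) and without TBTCl replicate 4 in the shared fit (0.0279). ACSS2, which makes acetyl-CoA from acetate, and ACACB, the carboxylase at mitochondria, had log2 fold changes of -0.41 and -0.23 and were not called.

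Among the elongases and desaturases 1 rose and 1 fell. ELOVL1, which extends very long saturated chains, averaged 70.5 ± 4.64 CPM in TCDD and 48.8 ± 1.62 CPM in DMSO and rose (log2 fold change 0.53 ± 0.10 SE, adjusted p = 0.000348). FADS1, a desaturase of polyunsaturated fatty acids, stood at 182, 155, 245 and 243 CPM in the TCDD libraries, against 291, 329.6, 330.3 and 473 CPM in DMSO. The groups did not overlap and the fall was 1.73-fold (log2 fold change -0.79 ± 0.18 SE, adjusted p = 0.00412). FADS2, the desaturase ahead of FADS1 on this route, whose gene overlaps FADS1 on the opposite strand, had 142, 164, 259 and 269 CPM in TCDD, against 318, 237, 248 and 611 CPM in DMSO (adjusted p = 0.232). DMSO replicate 4 was the highest of these, and the 95% interval of the log2 fold change of FADS2 was wide (-1.52 to -0.01). SCD (-0.50, adjusted p = 0.0835), ELOVL2 (0.37, 0.0616), ELOVL5 (-0.26, 0.0626) and ELOVL6 (-0.62, 0.18) were not called by edgeR, and SCD, ELOVL2 and ELOVL5 were by DESeq2 (adjusted p = 0.0421, 0.0456 and 0.0195). With the replicate number as a block, although it did not pair the TCDD and DMSO libraries, edgeR called SCD (adjusted p = 0.00925), ELOVL2 (0.0442), ELOVL5 (0.0482), ELOVL6 (0.0222) and FADS2 (0.0496).

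The acyl-CoA synthetases, which activate fatty acids for every later use, were the role with the most falls, 3 of 4. ACSL4, which prefers arachidonate, stood at 149.9, 237, 292 and 195 CPM in the TCDD libraries, against 461, 482, 584 and 580.2 CPM in DMSO. The highest TCDD library had 292 CPM and the lowest DMSO library 461 CPM, a 2.41-fold fall (log2 fold change -1.27 ± 0.19 SE, adjusted p = 3.85e-05). ACSL3, which sits on lipid droplets, had 164, 178, 305 and 263 CPM in TCDD, against 429, 332, 436 and 586 CPM in DMSO. All TCDD libraries were below all DMSO libraries and the fall was 1.96-fold (log2 fold change -0.97 ± 0.26 SE, adjusted p = 0.0144), a call lost without DMSO replicate 4, TCDD replicate 1 or TCDD replicate 2 (adjusted p = 0.0627, 0.0545 and 0.0681). ACSL1, the main synthetase of hepatocytes, had 45.0, 34.3, 31.8 and 43.6 CPM in TCDD, against 61.1, 76.4, 62.7 and 70.0 CPM in DMSO. Its groups stood apart as well, with a 1.75-fold fall (log2 fold change -0.80 ± 0.20 SE, adjusted p = 0.00951). ACSL5 was not called (-0.25 ± 0.15 SE, adjusted p = 0.363).

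In triglyceride assembly the rises and the falls were both present, and the largest change of any member was here. AGPAT2, the acyltransferase whose loss causes a congenital lipodystrophy in humans, stood at 45.6, 164, 103 and 88.8 CPM in the TCDD libraries, against 6.85, 4.88, 7.38 and 18.0 CPM in DMSO. The lowest TCDD library was 45.6 CPM and the highest DMSO library 18.0 CPM, and the rise was 10.8-fold (log2 fold change 3.43 ± 0.61 SE, adjusted p = 0.000284, 95% interval 2.17 to 4.69). GPAT3, a glycerol-3-phosphate acyltransferase of the endoplasmic reticulum, had 18.9, 13.7, 17.6 and 15.9 CPM in TCDD, against 7.52, 6.82, 4.92 and 6.92 CPM in DMSO. Its groups did not overlap and the change was a 2.52-fold rise (log2 fold change 1.34 ± 0.23 SE, adjusted p = 0.000174). GPAM, the mitochondrial enzyme of this step, and GPAT4 were not called, at log2 fold changes of -0.26 ± 0.27 and 0.17 ± 0.09 SE.

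AGPAT3, a paralog of AGPAT2, stood at 122, 137, 119 and 119 CPM in the TCDD libraries, against 75.9, 79.7, 85.2 and 80.6 CPM in DMSO. All TCDD libraries were above all DMSO libraries, a 1.55-fold rise (log2 fold change 0.63 ± 0.10 SE, adjusted p = 0.000112). AGPAT5, its mitochondrial relative, averaged 44.3 ± 4.19 CPM in TCDD and 57.4 ± 4.77 CPM in DMSO and fell (log2 fold change -0.37 ± 0.10 SE, adjusted p = 0.0152), a call lost without DMSO replicate 4 or TCDD replicate 2 (adjusted p = 0.0512 and 0.0602) and with no filter on low counts (0.0778). AGPAT1 was not called (-0.05 ± 0.12 SE).

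The lipins, phosphatidate phosphatases that yield diacylglycerol, went both ways. LPIN1 averaged 25.2 ± 2.17 CPM in TCDD and 37.1 ± 4.32 CPM in DMSO and fell (log2 fold change -0.56 ± 0.14 SE, adjusted p = 0.00913). LPIN3 averaged 48.0 ± 9.40 CPM in TCDD and 31.6 ± 3.74 CPM in DMSO and rose (log2 fold change 0.60 ± 0.19 SE, adjusted p = 0.0437), but that call was kept in only 1 of the 8 fits that left out a library of these groups, the one without TCDD replicate 4, and the adjusted p ran up to 0.212. It was also lost with library size alone (0.0877) and with water in place of DMSO (0.103). LPIN2 was not called (-0.29 ± 0.13 SE, adjusted p = 0.191). DGAT2, which adds the last acyl chain to newly made diacylglycerol, had 59.4, 50.2, 40.3 and 46.8 CPM in TCDD, against 85.0, 97.1, 91.9 and 75.7 CPM in DMSO. The highest TCDD library was below the lowest DMSO library, a 1.78-fold fall (log2 fold change -0.83 ± 0.14 SE, adjusted p = 8.59e-05). DGAT1, the other enzyme of the step, showed 76.9 ± 18.6 CPM in TCDD and 76.0 ± 15.8 CPM in DMSO and no call (0.02 ± 0.27 SE).

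**Figure D3:**
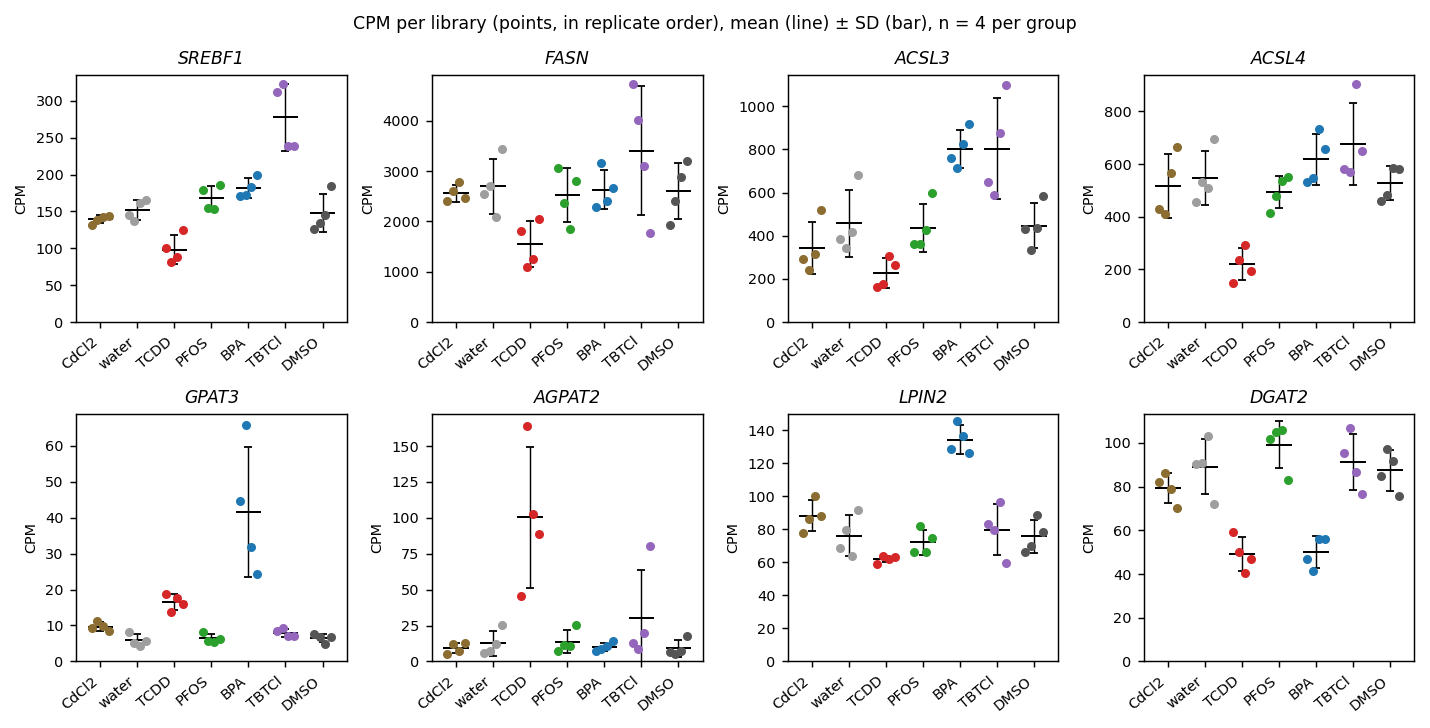
CPM of 8 members in every library, with the mean (line) and SD (bar) of 4 libraries per group. TCDD libraries are the lowest for SREBF1 and ACSL4, TCDD and BPA libraries lie below all others for DGAT2, BPA libraries are the highest for GPAT3 and LPIN2, and AGPAT2 is at 45.6 to 164 CPM in TCDD with TBTCl replicate 4 at 80.3 CPM.

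Under BPA 8 of 30 members rose and 4 fell. Over all tested genes 17.3% were called higher and 17.6% lower, and the members' shares (26.7% and 13.3%) were near this background. The median log2 fold change of the members was 0.16, beside -0.02 over all genes. Every BPA library lay above every DMSO library for 11 members and below for 3, beside 20.1% and 17.1% of all tested genes. With upper-quartile factors the median of all genes moved to -0.15 and the split was 8 higher and 8 lower, beside 11.9% and 23.1% of all genes. With library size alone it moved to -0.14 and the split was 6 and 7, beside 11.5% and 22.9%. The median of the members was 0.18 above that of all genes under all 3 scalings. A scaling shifts all genes of a comparison nearly alike, so this difference could hardly change and is no separate result. Summed hepatocyte markers were at 26623 to 42260 CPM in the BPA libraries, against 39378 to 72379 CPM in DMSO, with 3 of the 10 called lower (TF, FGB and AFP) and 1 higher (HNF4A). Summed markers of other cell types, again mostly KRT19, were at 269 to 356 CPM in BPA, against 549 to 639 CPM in DMSO. Of the 6 of these markers that were tested 2 were called lower. The part of either list in the changes of the members was not tested.

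No regulator and no enzyme of precursor supply was called under BPA in the fit used for the calls (TMM, all libraries, no replicate block). SREBF1 averaged 181 ± 13.5 CPM in BPA and 148 ± 25.5 CPM in DMSO (log2 fold change 0.30 ± 0.13 SE, adjusted p = 0.0839), and MLXIPL 163 ± 21.6 CPM in BPA and 125 ± 11.9 CPM in DMSO (log2 fold change 0.38 ± 0.16 SE, adjusted p = 0.0664). FASN averaged 2631 ± 392 CPM in BPA and 2605 ± 549.7 CPM in DMSO, with a 95% interval of the log2 fold change of -0.47 to 0.50. The log2 fold changes of ACLY, ACSS2, ACACA and ACACB lay between -0.44 and 0.44. ACACB, the lowest of them (adjusted p = 0.0805), was called lower with upper-quartile factors (adjusted p = 0.0215), library size alone (0.0399), only the 8 libraries (0.0344), without BPA replicate 4 (0.0483) and without TBTCl replicate 4 in the shared fit (0.0200). MLXIPL was called higher with only the 8 libraries (adjusted p = 0.0262). SREBF1 was called higher without DMSO replicate 4 (0.0213) and with the replicate number as a block (0.0448).

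The elongase and the desaturase that were called both act on polyunsaturated chains, and both fell. ELOVL2 averaged 63.6 ± 11.1 CPM in BPA and 89.1 ± 6.10 CPM in DMSO (log2 fold change -0.49 ± 0.13 SE, adjusted p = 0.00394). FADS2 stood at 139, 171, 126 and 218 CPM in the BPA libraries, against 318, 237, 248 and 611 CPM in DMSO. The highest BPA library was below the lowest DMSO library, a 2.16-fold fall (log2 fold change -1.11 ± 0.37 SE, adjusted p = 0.0219) that was no longer called without DMSO replicate 4 (log2 fold change -0.71, adjusted p = 0.145), BPA replicate 1 (adjusted p = 0.0610) or BPA replicate 3 (0.0651). FEN1, which lies within the annotated span of FADS2 on the same strand, also fell under BPA (log2 fold change -1.36 ± 0.29 SE, adjusted p = 0.000666). FADS1 on the opposite strand did not pass the test (log2 fold change -0.02 ± 0.18 SE, adjusted p = 0.954). ELOVL1, ELOVL5, ELOVL6 and SCD were not called, with log2 fold changes of 0.19, 0.12, 0.08 and -0.22.

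Of the acyl-CoA synthetases 2 of 4 rose under BPA. ACSL3 stood at 759, 713, 825 and 916 CPM in the BPA libraries, against 429, 332, 436 and 586 CPM in DMSO. All BPA libraries were above all DMSO libraries, a 1.80-fold rise (log2 fold change 0.85 ± 0.26 SE, adjusted p = 0.0124), and without DMSO replicate 2 the adjusted p was 0.0544. ACSL1 had 96.7, 135, 111 and 91.6 CPM in BPA, against 61.1, 76.4, 62.7 and 70.0 CPM in DMSO. These groups also stood apart, with a 1.61-fold rise (log2 fold change 0.69 ± 0.20 SE, adjusted p = 0.0104), lost without BPA replicate 2 (adjusted p = 0.0527) and with library size alone (0.0537). ACSL4 (0.23 ± 0.19 SE) and ACSL5 (0.34 ± 0.15 SE) were not called. ACSL5 was called higher with only the 8 libraries (adjusted p = 0.0203) and without TBTCl replicate 4 in the shared fit (0.0464).

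All 3 glycerol-3-phosphate acyltransferases, which catalyse the entry step of triglyceride synthesis, rose under BPA. GPAT3 stood at 44.6, 65.9, 31.9 and 24.3 CPM in the BPA libraries, against 7.52, 6.82, 4.92 and 6.92 CPM in DMSO. The lowest BPA library had more than the highest library of any other group, and the rise was 6.37-fold (log2 fold change 2.67 ± 0.24 SE, adjusted p = 8.11e-09). GPAM had 263, 328, 379 and 255 CPM in BPA, against 103, 217, 222 and 136 CPM in DMSO. Here the groups were apart although DMSO itself was spread widely, and the rise was 1.81-fold (log2 fold change 0.85 ± 0.27 SE, adjusted p = 0.0167), lost without DMSO replicate 1 or BPA replicate 3 (adjusted p = 0.0645 and 0.0561). GPAT4 had 113, 109, 107 and 106 CPM in BPA, against 74.3, 64.7, 68.3 and 71.8 CPM in DMSO. Both groups were tight and did not overlap, a 1.56-fold rise (log2 fold change 0.64 ± 0.09 SE, adjusted p = 5.09e-06).

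Among the later steps 3 genes rose and 2 fell under BPA. AGPAT3 averaged 106 ± 4.99 CPM in BPA and 80.4 ± 3.80 CPM in DMSO (log2 fold change 0.39 ± 0.10 SE, adjusted p = 0.00484), a rise not called with library size alone (adjusted p = 0.0826) or with no filter on low counts (0.0734). AGPAT2, the gene with the largest rise under TCDD, had 7.36, 8.34, 10.8 and 14.1 CPM in BPA, against 6.85, 4.88, 7.38 and 18.0 CPM in DMSO (log2 fold change 0.12 ± 0.57 SE, adjusted p = 0.889). LPIN2 had 129, 146, 136 and 126 CPM in BPA, against 66.1, 69.9, 88.3 and 78.5 CPM in DMSO. All 4 BPA libraries exceeded every other library of the study for LPIN2, a 1.77-fold rise (log2 fold change 0.83 ± 0.13 SE, adjusted p = 2.71e-05). LPIN1, a lipin that also acts as a transcriptional coactivator, had 51.1, 71.9, 43.4 and 45.6 CPM in BPA, against 34.3, 32.7, 39.7 and 41.8 CPM in DMSO. BPA replicate 2 was the highest, and the 1.43-fold rise (log2 fold change 0.52 ± 0.14 SE, adjusted p = 0.00577) was not called without it (log2 fold change 0.33, adjusted p = 0.0641). AGPAT1, AGPAT5 and LPIN3 were not called, with log2 fold changes of -0.19, -0.16 and -0.39. With upper-quartile factors they were called lower (adjusted p = 0.0364, 0.0369 and 0.0407), as were AGPAT1 and AGPAT5 with library size alone (0.0372 and 0.0288). LPIN3 was also called lower with only the 8 libraries (0.0331) and without TBTCl replicate 4 in the shared fit (0.0499).

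Both enzymes of the last step fell under BPA. DGAT2 stood at 47.0, 41.2, 56.1 and 56.1 CPM in the BPA libraries, against 85.0, 97.1, 91.9 and 75.7 CPM in DMSO. The highest BPA library was below the lowest DMSO library, a 1.75-fold fall (log2 fold change -0.80 ± 0.14 SE, adjusted p = 6.42e-05). DGAT1 had 41.0, 35.2, 40.7 and 56.8 CPM in BPA, against 94.2, 73.7, 56.0 and 80.1 CPM in DMSO. BPA replicate 4 was just above DMSO replicate 3, and the 1.75-fold fall (log2 fold change -0.81 ± 0.27 SE, adjusted p = 0.0214) was lost without DMSO replicate 1 or BPA replicate 1, 2 or 3 (adjusted p = 0.0723, 0.0540, 0.0721 and 0.0511). HSF1, which overlaps DGAT1 on the opposite strand with 122% as many counts, rose in the same comparison (log2 fold change 0.77 ± 0.10 SE, adjusted p = 1.18e-06).

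TCDD and BPA shared their DMSO libraries, so the difference between them was tested directly. AGPAT2 differed most upward and ACSL3 most downward. Of 30 members 16 were lower and 5 higher in TCDD than in BPA, where 17.8% and 20.4% of all genes were called lower and higher. The median log2 fold change of TCDD over BPA was -0.43 for the members and 0.05 for all genes, and with upper-quartile factors -0.31 and 0.18. All 4 acyl-CoA synthetases were lower in TCDD, from ACSL3 (log2 fold change -1.82 ± 0.26 SE, adjusted p = 5.85e-06) to ACSL5 (-0.59). All 3 GPAT genes were lower in TCDD as well, GPAT3 included, which was above DMSO in both groups (16.5 ± 2.24 CPM in TCDD, 41.7 ± 18.2 CPM in BPA and 6.55 ± 1.13 CPM in DMSO, log2 fold change of TCDD over BPA -1.34 ± 0.23 SE).

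LPIN1 (-1.07) and LPIN2 (-1.11) were lower in TCDD than in BPA and LPIN3 was higher (1.00, adjusted p = 0.000215). SREBF1 (-0.88), FASN (-0.76), ACACA (-0.81), ACSS2 (-0.86), FADS1 (-0.77), ELOVL5 (-0.38) and ELOVL6 (-0.70) were lower in TCDD too. AGPAT2 (3.31), ELOVL1 (0.34), ELOVL2 (0.86) and DGAT1 (0.82) were higher. The call of ELOVL6 was lost in 6 of the 8 fits without a library of these groups and with upper-quartile factors or library size alone (adjusted p up to 0.156). ACSS2 lost its call with upper-quartile factors (0.0534) and without TCDD replicate 1 (0.0794) or BPA replicate 2 (0.0937), and DGAT1 without TCDD replicate 1 (0.0779) or BPA replicate 2 (0.0640). FASN lost it without TCDD replicate 2 (0.0562) and ELOVL1 with no filter on low counts (0.105). DGAT2, which fell under both compounds, averaged 49.2 ± 7.95 CPM in TCDD and 50.1 ± 7.33 CPM in BPA, and the 95% interval of their log2 difference was -0.30 to 0.25.

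**Figure D4:**
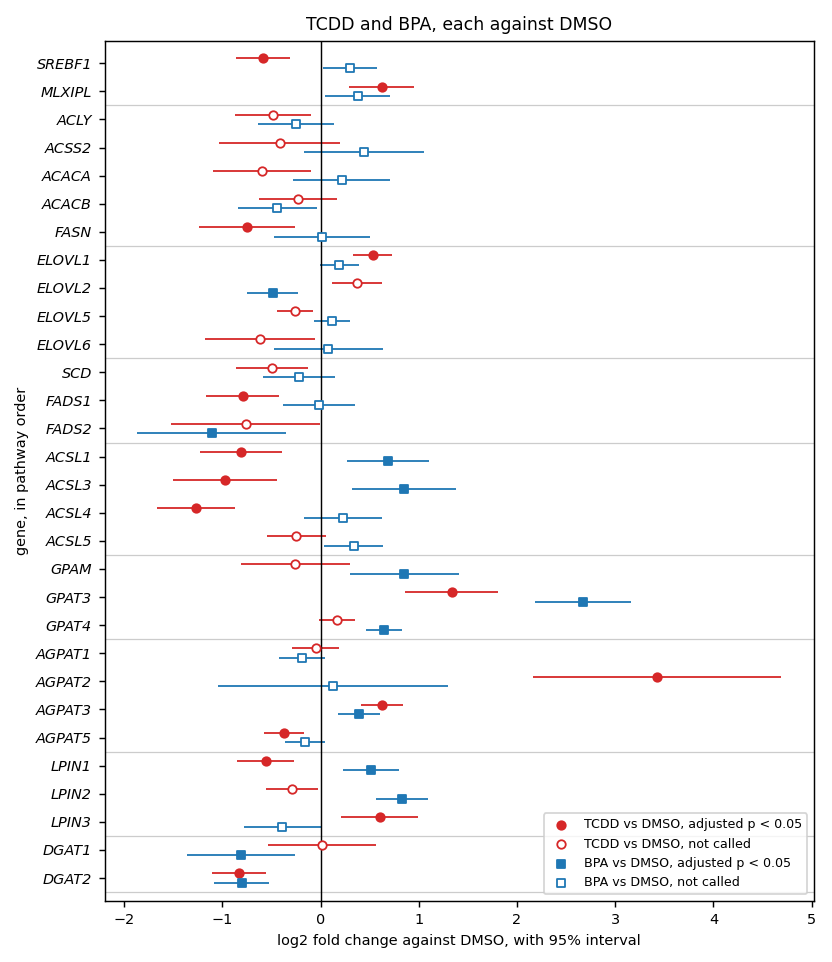
Log2 fold change of each tested member under TCDD (circles) and BPA (squares) against the same DMSO libraries, with 95% intervals; filled symbols have an adjusted p under 0.05. Among members called under both compounds, the 2 lie on opposite sides of 0 for ACSL1, ACSL3 and LPIN1 and on the same side for GPAT3, AGPAT3 and DGAT2. AGPAT2 is far from 0 under TCDD alone.

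Under TBTCl 1 of 30 members was called, and it rose. Over all genes 0.106% were called higher and 0.0371% lower. SREBF1 stood at 312, 322, 238 and 239 CPM in the TBTCl libraries, against 127, 135, 145 and 184 CPM in DMSO. Every TBTCl library was above every other library of the study for this gene, and the rise was 1.88-fold (log2 fold change 0.91 ± 0.13 SE, adjusted p = 0.00194). The call held without TBTCl replicate 4 (log2 fold change 0.98, adjusted p = 0.00125). With only these 8 libraries in the fit it was lost: the adjusted p rose to 0.531 at a log2 fold change of 0.91, whose SE was 0.18. Why SREBF1 lost its call there was not tested. RAI1 on the opposite strand was at -0.19 ± 0.16 SE.

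The library numbered 4 was the lowest of TBTCl in 16 of 30 members and the highest in 6. The same count over all genes was not taken. FASN had 4739, 4019, 3104 and 1781 CPM in the TBTCl libraries, against 1939, 2406, 2878 and 3196 CPM in DMSO, and ACACA had 241, 203, 151 and 70.8 CPM in TBTCl, against 132, 136, 149.6 and 163 CPM in DMSO. In both genes TBTCl replicates 1 and 2 were above all DMSO libraries and replicate 4 was below all of them. Neither was called: the log2 fold change of FASN was 0.39 (adjusted p = 0.431) with replicate 4 and 0.60 (0.483) without it, and that of ACACA 0.20 (0.728) with it and 0.45 (0.659) without it. AGPAT2 had 13.0, 8.86, 20.0 and 80.3 CPM in TBTCl, against 6.85, 4.88, 7.38 and 18.0 CPM in DMSO. Its log2 fold change was 1.71 ± 0.58 SE (adjusted p = 0.176) with replicate 4 and 0.58 (adjusted p = 0.973) without it. ACSL1 had 112, 154, 92.1 and 49.5 CPM in TBTCl, against 61.1, 76.4, 62.7 and 70.0 CPM in DMSO. Without replicate 4 ACSL1 was called (0.59 ± 0.20 SE, adjusted p = 0.178 with it, 0.82 and 0.0493 without it).

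ACSL3 had 648, 590.3, 876 and 1099.8 CPM in the TBTCl libraries, against 429, 332, 436 and 586 CPM in DMSO. The lowest TBTCl library was above the highest DMSO library, but the difference was not called (log2 fold change 0.85 ± 0.26 SE, adjusted p = 0.14), nor was it without replicate 4 (0.66, adjusted p = 0.567). In a fit blocked by replicate number, since same-numbered libraries of these groups deviated together, ACSL3 (log2 fold change 0.83, adjusted p = 0.00151) and AGPAT2 (1.49, adjusted p = 0.0474) were called beside SREBF1. Leaving aside SREBF1, AGPAT2, ACSL1 and ACSL3, the log2 fold changes under TBTCl lay between -0.32 (ELOVL2) and 0.40 (DGAT1), and the median over all 30 members was 0.12, beside 0.01 over all genes. Without replicate 4 the same members lay between -0.21 (ELOVL2) and 0.60 (FASN), and the median of the 30 was 0.17, beside 0.00 over all genes.

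CdCl2 was followed by no call among the 30 members. Over all genes 0.0212% were called higher and 0% lower in this comparison. An unadjusted p under 0.05 was found for 5 of the 30 members and for 940 of all 18849 genes, a larger share of the members. GPAT3 stood at 9.41, 11.3, 9.73 and 8.36 CPM in the CdCl2 libraries, against 8.29, 5.21, 4.40 and 5.75 CPM in water. The lowest CdCl2 library was just above the highest water library (log2 fold change 0.71 ± 0.23 SE, adjusted p = 0.796). DGAT1 averaged 50.2 ± 8.27 CPM in CdCl2 and 81.5 ± 19.8 CPM in water, with no overlap of the groups (log2 fold change -0.70 ± 0.27 SE, adjusted p = 0.898). FADS2 averaged 209 ± 89.6 CPM in CdCl2 and 432 ± 206 CPM in water, which amounted to -1.05 ± 0.37 SE on the log2 scale (adjusted p = 0.898). The other 2 were ACSS2 (-0.85) and MLXIPL (-0.37). For 25 of 30 members the 95% interval of the log2 fold change stayed within 1 on either side of 0, and it reached beyond that for ACSS2, FADS2, GPAT3, AGPAT2 and DGAT1. DESeq2 called no member under CdCl2 either.

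PFOS was likewise followed by no call, and no member had an unadjusted p under 0.05. Over all genes 0% were called higher and 0.0159% lower, and DESeq2 also called no member. SREBF1 averaged 168 ± 16.5 CPM in PFOS and 148 ± 25.5 CPM in DMSO (0.19 ± 0.13 SE), and FASN 2521 ± 539 CPM in PFOS and 2605 ± 549.7 CPM in DMSO (-0.05 ± 0.24 SE). The 95% interval stayed within 1 on the log2 scale for 29 of 30 members, with AGPAT2 (-0.61 to 1.73) as the exception. Between the vehicles, DMSO and water, no member was called by edgeR or DESeq2 (0% higher and 0% lower over all genes with edgeR) and none had an unadjusted p under 0.05. MLXIPL averaged 125 ± 11.9 CPM in DMSO and 151 ± 30.9 CPM in water (-0.27 ± 0.16 SE), and FADS2 353 ± 175 CPM in DMSO and 432 ± 206 CPM in water (-0.29 ± 0.37 SE).

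Other genes of the pathway that are not members were counted from 4 lists: 12 genes that control SREBP and ChREBP, 8 that supply citrate, NADPH or glycerol-3-phosphate, 5 partners of the elongation cycle and 13 paralogs of members. Of these 38 genes 35 were tested. Under BPA 12 rose and 5 fell, beside the 17.3% and 17.6% of all genes. The control list held 7 of these rises and no fall, among them NR1H3, the liver X receptor alpha that activates SREBF1, SCAP, which escorts SREBP, and PPARGC1B, a coactivator of SREBP, which averaged 8.10 ± 1.02 CPM in BPA and 3.51 ± 0.769 CPM in DMSO (log2 fold change 1.20 ± 0.35 SE, adjusted p = 0.00904). In the supply list 3 of 7 rose under BPA and 1 fell, and of the elongation partners 1 of 5 rose. Of 11 tested paralogs 1 rose and 4 fell: FADS3, which is a neighbour of FADS1 and FADS2, averaged 55.5 ± 8.26 CPM in BPA and 22.1 ± 1.17 CPM in DMSO (log2 fold change 1.33 ± 0.11 SE, adjusted p = 2.34e-09), and ACSL6, a synthetase best known from brain, averaged 0.306 ± 0.147 CPM in BPA and 3.04 ± 0.315 CPM in DMSO (log2 fold change -3.32 ± 0.29 SE, adjusted p = 4.99e-09). ELOVL3, with only 2, 8, 5 and 14 counts in the BPA libraries, against 26, 14, 21 and 32 counts in DMSO, was called lower on few counts (adjusted p = 0.0326). The other paralogs called lower were MOGAT1 and MOGAT2, which make diacylglycerol from monoacylglycerol.

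Under TCDD 2 of the 35 rose and 2 fell, near the 6.45% and 2.80% of all genes. ACSL6 averaged 9.14 ± 1.01 CPM in TCDD and 3.04 ± 0.315 CPM in DMSO (log2 fold change 1.59 ± 0.24 SE, adjusted p = 2.41e-05), opposite to the 3 synthetases that fell, and FADS3 rose (0.41 ± 0.11 SE, adjusted p = 0.0141). MID1IP1, which helps acetyl-CoA carboxylase to polymerise, averaged 72.0 ± 8.76 CPM in TCDD and 109 ± 14.6 CPM in DMSO and fell (log2 fold change -0.60 ± 0.11 SE, adjusted p = 0.000561). INSIG1, which holds back SREBP, had only 8, 6, 5 and 6 counts in the TCDD libraries, against 14, 11, 12 and 42 counts in DMSO, a call on few counts (adjusted p = 0.0422). Under TBTCl MID1IP1 rose, with 155, 170.3, 165 and 143 CPM in the TBTCl libraries, against 91.1, 107, 127 and 111 CPM in DMSO (log2 fold change 0.54 ± 0.11 SE, adjusted p = 0.0421). Without TBTCl replicate 4 its log2 fold change was 0.59 (adjusted p = 0.0493), and no other gene of the lists was called under TBTCl, CdCl2 or PFOS. Directly between TCDD and BPA 14 of 35 were lower in TCDD and 3 higher, beside 17.8% and 20.4% of all genes, with the largest differences in ACSL6 (4.91), INSIG1 (-2.18), GPD1 (-2.04), which makes glycerol-3-phosphate, and GK, glycerol kinase (-1.59). The difference of INSIG1 again rests on few counts, 5 to 8 in the TCDD libraries and 14 to 32 in BPA. INSIG1 had 4 to 42 counts over all libraries, and whether the counting lowered them was not tested.

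Many members also varied with the replicate number, in vehicles and in compounds, but not equally in every group. Number 4 was highest for 16 of 30 members in DMSO, 15 in water and in CdCl2, 13 in BPA and 11 in PFOS. It was highest for 9 in TCDD and 6 in TBTCl, and the same counts over all genes were not taken. The library numbered 4 had the highest CPM of its group in at least 5 of the 7 groups for 10 of 30 members (33.3%), beside 9.93% of all tested genes. FADS2 was highest in number 4 in 7 of 7 groups, with 378, 220.3, 416 and 715 CPM in water and 354, 225, 208 and 558 CPM in PFOS. SREBF1, ACSL3, ACSL5 and AGPAT2 were highest in number 4 in 6 of 7 groups, and ACLY, ACSS2, ELOVL6, SCD and FADS1 in 5 of 7. DGAT1 was highest in number 1 in 6 of 7 groups, for example with 141, 69.0, 54.9 and 92.0 CPM in PFOS. With the replicate number as a block, SREBF1 (log2 fold change 0.30, adjusted p = 0.0448) and ACSL5 (0.35, adjusted p = 0.0104) were also called under BPA, and no call was lost. The block called 21.4% of all genes higher under BPA and 21.4% lower.

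**Figure D5:**
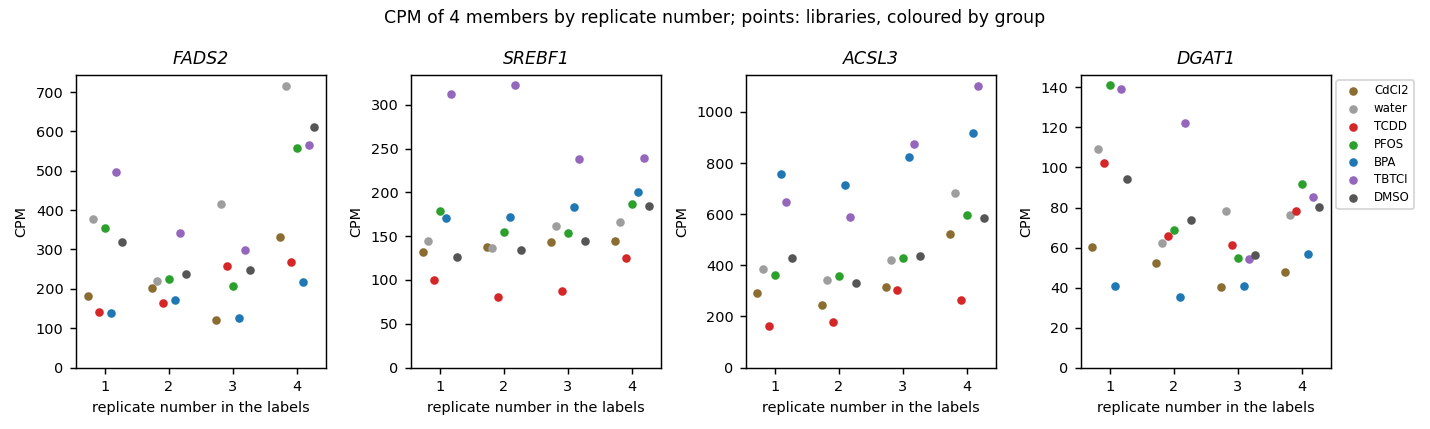
CPM of FADS2, SREBF1, ACSL3 and DGAT1 by the replicate number in the labels, each point a library coloured by its group. FADS2 is highest at number 4 in 7 of 7 groups, and DGAT1 is highest at number 1 in 6 of 7.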

How the data were processed

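Integer read counts per gene were deposited for 28 libraries (7 groups of 4). Per the submitters' processing notes, the authors used fastp, STAR, HTSeq and DESeq2 with GRCh38. Which versions, annotation release and strand setting they used was not given in the sources used here. Of 63140 rows the last, which ends without a line break, was left out. Gene coordinates and exon lengths came from GENCODE 29 and promoter windows from RefSeq.

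Counts were tested with edgeR 4.0.16 in R 4.3.3 (TMM, quasi-likelihood, 1 fit of all 28 libraries with 7 group means, 21 residual degrees of freedom, filterByExpr with a minimum count of 10, Benjamini-Hochberg over 18849 genes holding 99.96% of counts). The biological coefficient of variation was 22.0%. SE is the size of the log2 fold change divided by the square root of F. DESeq2 1.42.0, other scalings, no filter, a replicate block, 8-library fits, water as control and leaving out single libraries were alternatives. In a library, 3 counts correspond to 0.0454 to 0.104 CPM, which covers counting error only. Chi-square per gene between libraries of a group was 24.8 to 334, far from a repeated deposit. P-values weigh a difference between group means against the spread between libraries of a group, estimated over all 28 libraries of 1 cell line. The fit used for the calls held no term for the replicate number.

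Members and lists were chosen with earlier results of these data known. Called members are given library by library, up to 10 per comparison by size of the log2 fold change; other genes of the pathway are named if called, up to 4 per comparison. Beyond this rule, uncalled members (FADS2, AGPAT2 and others) were picked for library values after these were seen, as were NR1H3, SCAP, MOGAT1 and MOGAT2.

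Same-numbered libraries deviated together from their group means (correlations all over 0.1) for CdCl2 and water (0.123 to 0.540), PFOS (0.425 to 0.593), BPA (0.173 to 0.269), TBTCl (0.249 to 0.528) and DMSO and water (0.181 to 0.627), but not for TCDD (-0.212 to 0.439). The pairing comes from the data, since the labels do not state it.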

Additional observations from a re-analysis of the deposited data

Results flagged for a closer look

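In groups of 4 libraries, 5 of 210 sets of values (30 tested members in 7 groups) had a single library far from the other 3 by Dixon's test, where chance flags about 1 in 20. AGPAT2 was at 80.3 CPM in TBTCl replicate 4, above 8.86 to 20.0 CPM in the other TBTCl libraries, and ELOVL2 was at 54.4 CPM in the same library, below 76.5 to 77.9 CPM in the others. FADS1 was at 400.2 CPM in CdCl2 replicate 4, above 259 to 281 CPM in the other CdCl2 libraries. AGPAT3 was at 83.3 CPM in CdCl2 replicate 2, above 75.5 to 76.5 CPM in the others. ACACB was at 40.9 CPM in replicate 2 of water, above 29.7 to 30.8 CPM in the other water libraries.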

How the results depend on the processing

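No log2 fold change of a called member changed sign in any alternative. Of 371 values of called members with all libraries kept 14 lost the call, and of 440 with a library left out 41 did. Called members under TCDD numbered 4 to 7 higher and 6 to 13 lower over all alternatives. Under BPA the members called lower numbered 8 with upper-quartile factors and 7 with library size alone, against 4 with TMM, as the share of all genes called lower went to 23.1% and 22.9%, against 17.6%. They numbered 2 to 5 when a library was left out in turn (2 without BPA replicate 1 or 3). Under TBTCl the members called higher numbered 3 with the replicate block, 0 in a fit of only the 8 libraries compared, 2 with no filter on low counts, and 1 to 2 when a library was left out, against 1. Library size alone moved the median of all genes under TBTCl to -0.09. The replicate block gave 10 higher and 4 lower under BPA, beside 21.4% of all genes each way, and changed no call under CdCl2, PFOS or between vehicles. Under TCDD, where the numbers did not pair the libraries, it gave 7 higher and 13 lower, beside 8.96% and 5.49% of all genes, and 21 of 28 libraries correlated best with their own number. Leaving TBTCl replicate 4 out of the shared fit, chosen after seeing the data, gave 7 higher and 11 lower under TCDD (7.60% and 4.81% of all genes), 9 and 6 under BPA (19.8% and 20.0%), and 6 and 17 for TCDD over BPA (22.4% and 21.3%). With 4 libraries a group, a member that was not called may still have changed by an amount within its interval.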
